A study of Mus musculus with 16 samples.

Results

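The 10 genes described here, Tcp11, Rspo2, Cdk19, Pbx3, Hnrnpdl, Zfp36l2, Chd1l, Arhgef10l, Atp8b2 and Abtb1, had lower transcript levels in retinas of mice given a drug that inhibits the kinase DLK (dual leucine zipper kinase) than in retinas of mice given vehicle, both in the eye whose optic nerve had been crushed and in the uncrushed eye. They were selected on the counts and levels of these same 16 libraries, so their inhibitor differences are described without a test, and only measures that did not choose them, such as the change with crush, are tested. They are 10 of 36528 gene identifiers counted, and all 10 were among the 19391 genes with enough reads to be tested. Of those, 39 were called lower with inhibitor in both eyes, at a Benjamini-Hochberg adjusted p of at most 0.05 in each, and the 10 are part of these 39 (0.201% of tested genes). RNA was taken from mouse retina on day 3 after optic nerve crush, an injury that cuts the axons of retinal ganglion cells. The 4 groups were crushed retina with GNE-3511, the DLK inhibitor, at 75 mg/kg (crushed DLKi, n = 5), uncrushed retina with the same inhibitor (uncrushed DLKi, n = 5), crushed retina with vehicle, labelled MCT (crushed control, n = 3), and uncrushed retina with vehicle (uncrushed control, n = 3). Doses were given at 60 and 68 h after injury, late in the 3 days. Per the labels 5 mice received each drug, and strain, sex and age are not stated. The labels do not say which retinas came from one mouse, so the spread between libraries may be partly technical and p-values measure that spread only. For the same reason both eyes may share mice, and the inhibitor contrasts of crushed and uncrushed retina may not be independent. The labels name no batch. By sample identifier all DLKi libraries follow each other, with control libraries before and after them. A batch in that order could not be told apart from the drug.

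DLK, encoded by Map3k12, is a kinase of axons that is activated by axon damage. It phosphorylates the kinases MKK4 and MKK7, which in turn activate JNK, and JNK phosphorylates the transcription factor JUN, so that injury genes are switched on in the cell body. In the retina it is known for driving the death of ganglion cells after optic nerve injury. The 10 genes do not belong to 1 pathway: they include a secreted Wnt signalling protein, regulators of transcription and chromatin, RNA-binding proteins, an activator of small GTPases, a membrane lipid transporter, a BTB-domain protein and a gene best known from sperm.

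The libraries held 22.4 to 44.8 M counted reads, 32.7 to 36.8 M in crushed DLKi, 32.2 to 44.8 M in uncrushed DLKi, 25.4 to 35.9 M in crushed control and 22.4 to 38.6 M in uncrushed control retina. The shallowest pair, uncrushed control replicate 1 and crushed control replicate 3, also stood apart from the other 14 on the second principal component, which held 17.3% of the variance. Crushed DLKi replicates 3 and 5 stood apart in 5 cornea and conjunctiva markers, which summed to 27.4 and 35.5 nRPKM in them and to at most 2.67 in each of the other 14 libraries. Values without either pair are given beside the results they move most. In whole retina, fewer cells of a type and less RNA per cell cannot be told apart.

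All 10 are protein-coding genes in the GENCODE annotation of GRCm38, spread over 8 chromosomes. Tcp11 (Entrez 21463) lies at chr17:28066747-28080726 on the minus strand and Zfp36l2 (12193) at chr17:84183924-84187947, also minus. Atp8b2 (54667, chr3:89939481-89963338) and Chd1l (68058, chr3:97560740-97610222) share chromosome 3 and the minus strand. Rspo2 (239405) lies at chr15:43020788-43171594, Pbx3 (18516) at chr2:34171457-34372045 and Hnrnpdl (50926) at chr5:100033577-100039936, all minus. Arhgef10l (72754, chr4:140514485-140666007) and Abtb1 (80283, chr6:88835914-88842375) are on the minus strand, and Cdk19 (78334, chr10:40349287-40483818) is the 1 gene on the plus strand. Exons of another gene overlap 11.6% of the exon length of Tcp11 (AC132460.1, same strand), 4.58% of Cdk19 (Cdk19os, opposite strand), 3.27% of Chd1l (Gm43075, opposite) and 2.97% of Zfp36l2 (AC132455.1, opposite), and 0% of the other 6. The library kit does not mark strand, so reads in these overlaps could come from either gene. The median exon length of the 10 genes was 4987 bases, against 4113 bases over tested genes with an annotation, and their median mean level was 41.8 CPM (counts per 1 M counted reads) against 14.4.

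Windows of 300 bases around the transcription start, 250 before and 50 after it, were in the RefSeq table of GRCm38.p6 for 6 of the 10 genes, in 10 windows, and not for Rspo2, Cdk19, Pbx3 and Zfp36l2. Windows of 4 genes are shown as examples of those that hold motifs searched. They run 5′ to 3′ on the minus strand of GRCm38.p6, with motif letters in capitals: GC boxes (GGGCGG, or CCGCCC when read on the other strand) in Tcp11 (chr17:28080590-28080889), Hnrnpdl (chr5:100039173-100039472) and Abtb1 (chr6:88841886-88842185), and in Arhgef10l (chr4:140665856-140666155) AP-1 motifs (TGANTCA, the letters bound by JUN and FOS) with a CCAAT box.
Tcp11: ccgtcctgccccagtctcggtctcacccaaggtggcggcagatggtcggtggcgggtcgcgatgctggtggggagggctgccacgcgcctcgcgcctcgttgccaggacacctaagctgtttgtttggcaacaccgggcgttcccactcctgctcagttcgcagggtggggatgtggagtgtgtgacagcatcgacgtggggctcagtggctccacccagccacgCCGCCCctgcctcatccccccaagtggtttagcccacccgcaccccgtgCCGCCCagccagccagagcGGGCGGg
Hnrnpdl: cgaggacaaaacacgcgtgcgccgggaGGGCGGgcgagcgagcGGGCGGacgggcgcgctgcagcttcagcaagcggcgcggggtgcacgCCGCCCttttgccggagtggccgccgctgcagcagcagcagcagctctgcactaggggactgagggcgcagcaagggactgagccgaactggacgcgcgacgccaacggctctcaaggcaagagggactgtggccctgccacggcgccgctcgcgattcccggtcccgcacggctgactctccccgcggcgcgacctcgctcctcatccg
Abtb1: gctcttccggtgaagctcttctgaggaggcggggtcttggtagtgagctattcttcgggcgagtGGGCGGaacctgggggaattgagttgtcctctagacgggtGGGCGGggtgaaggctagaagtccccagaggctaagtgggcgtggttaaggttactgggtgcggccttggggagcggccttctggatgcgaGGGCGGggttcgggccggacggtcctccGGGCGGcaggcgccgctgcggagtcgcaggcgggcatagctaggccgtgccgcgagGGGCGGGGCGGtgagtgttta
Arhgef10l: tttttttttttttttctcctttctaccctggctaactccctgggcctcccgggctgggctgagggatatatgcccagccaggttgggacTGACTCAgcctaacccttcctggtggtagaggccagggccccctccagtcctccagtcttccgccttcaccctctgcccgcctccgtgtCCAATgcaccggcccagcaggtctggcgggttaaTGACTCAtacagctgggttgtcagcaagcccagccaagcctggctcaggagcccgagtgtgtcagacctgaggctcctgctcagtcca

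Counted from the start site, the Tcp11 window has GC boxes at -25, 25 and 44, the Hnrnpdl window at -223, -207 and -160, and the Abtb1 window at -186, -146, -55, -27, 30 and 35, the last pair sharing 1 base. In the Arhgef10l window the AP-1 motifs begin at -161 and -38 and the CCAAT box at -72. On either strand, GGGCGG occurred in 6 of the 10 windows, against 35.7% of all 32851 RefSeq windows of this length, and CCAAT in 3 against 37.4%. Both windows of Atp8b2, not shown, hold GC boxes, and 1 of them a CCAAT box. The window of Chd1l and 1 of Tcp11, also not shown, hold none of the motifs searched. TGANTCA occurred in 2, both windows of Arhgef10l that overlap each other, against 7.81%. TGACGTCA (the CRE, 1.79% of all windows), CACGTG (an E-box, 7.15%) and TATAAA (13.6%) occurred in 0 of the 10. GC content was 59.7 to 72.7% in the 10 windows, against a median of 52.7% over all. Some windows of 1 gene overlap, so these counts describe letters in 6 genes and say nothing of factors that act elsewhere.

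The inhibitor decreases of the 10 genes had like ranges in crushed and in uncrushed retina. The genes were chosen for being lower in both eyes, so this likeness follows at least in part from the choice. On the log2 scale the 10 genes stood lower in crushed DLKi than in crushed control retina by 0.39 to 1.55, and lower in uncrushed DLKi than in uncrushed control retina by 0.40 to 1.67. Their median log2 changes were -0.45 and -0.50, against 0.01 and 0.01 over all tested genes. In crushed retina all 10 were called lower (edgeR quasi-likelihood test), against 0.376% of tested genes (and 0.129% called higher), and in uncrushed retina all 10, against 0.366% (0.263% higher). Called lower in both were 39 genes, against 0.0464% of tested genes called higher in both. These calls come from the fit over all tested genes and are no test of the 10. The 10 genes were listed for these contrasts, so the counts, and the library overlaps below, are given with no reading. Crushed and uncrushed retinas may come from the same mice, so a decrease in both eyes may not be 2 independent observations. Without the pair of control libraries that stands apart, their log2 changes were -0.37 to -1.56 in crushed and -0.39 to -1.50 in uncrushed retina, while 9 genes, 5 of the 10 among them, were then called lower in both. Without the pair high in cornea markers, the log2 changes of the 10 were -0.36 to -1.45 in crushed and -0.40 to -1.67 in uncrushed retina, while 3 genes, Tcp11 and Cdk19 among them, were called lower in both. In both eyes the DLKi libraries lay wholly below the control libraries for all 10, against 4.87% of tested genes in crushed retina, 4.31% in uncrushed retina and 1.33% in both. For 9 of the 10, all but Atp8b2, the 10 DLKi libraries of either eye lay below the 6 control libraries of either eye, against 0.686% of tested genes. At the border of the list of 39, among genes with at least 1 CPM, Smpd2 lay just inside, with log2 changes of -0.44 in crushed and -0.34 in uncrushed retina, and Grk6 just outside, at -0.31 and -0.25. Of the 10 genes, Abtb1 was the nearest to that border. In the scatter of inhibitor changes of both eyes, Rspo2 and Tcp11 lay far from the rest of the 39.

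**Figure D1:**
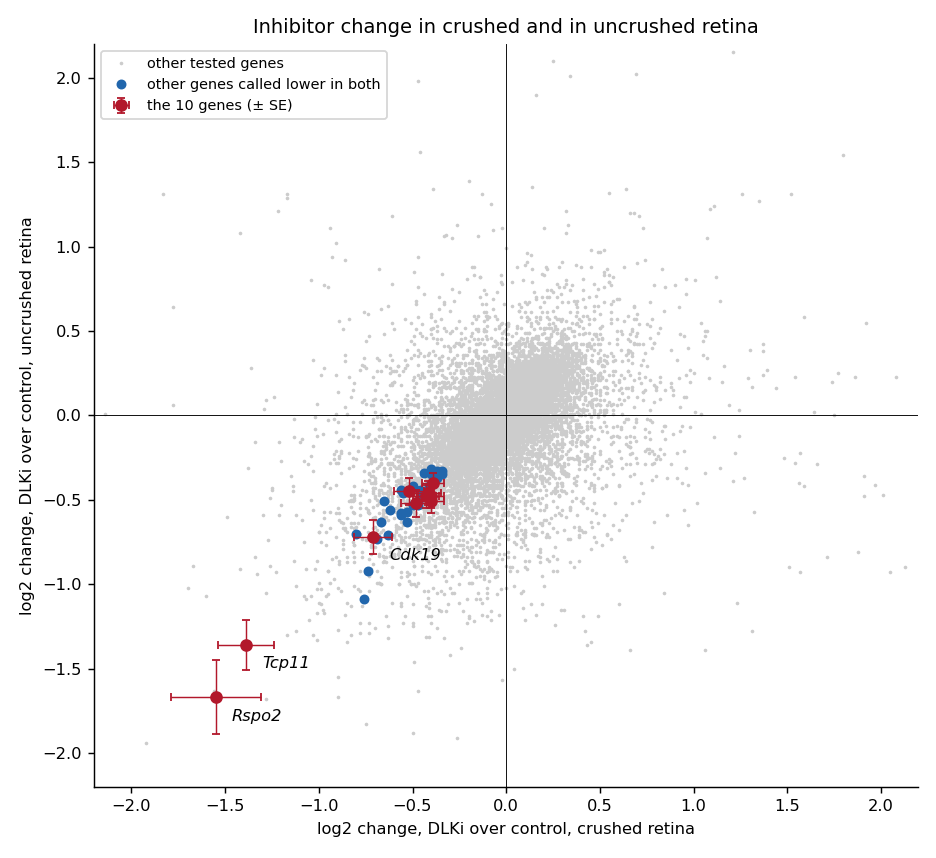
Each point is a tested gene: log2 change with inhibitor in crushed retina (x axis, 5 DLKi over 3 control libraries) against the same in uncrushed retina (y axis), with the 10 genes in red (bars ± SE) and the other 29 genes called lower in both eyes in blue; 36 genes beyond ± 2.2 are not drawn. Among the 10 genes, Rspo2 (-1.55, -1.67) and Tcp11 (-1.39, -1.36) lie furthest down the diagonal, then Cdk19 (-0.71, -0.72), with the other 7 between -0.39 and -0.52.

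Levels are given below as nRPKM, the authors' value of reads per kilobase of gene model per 1 M reads, adjusted by a size factor for each library. They are listed in the order of the replicate numbers, which only name the libraries.

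**Figure D2:**
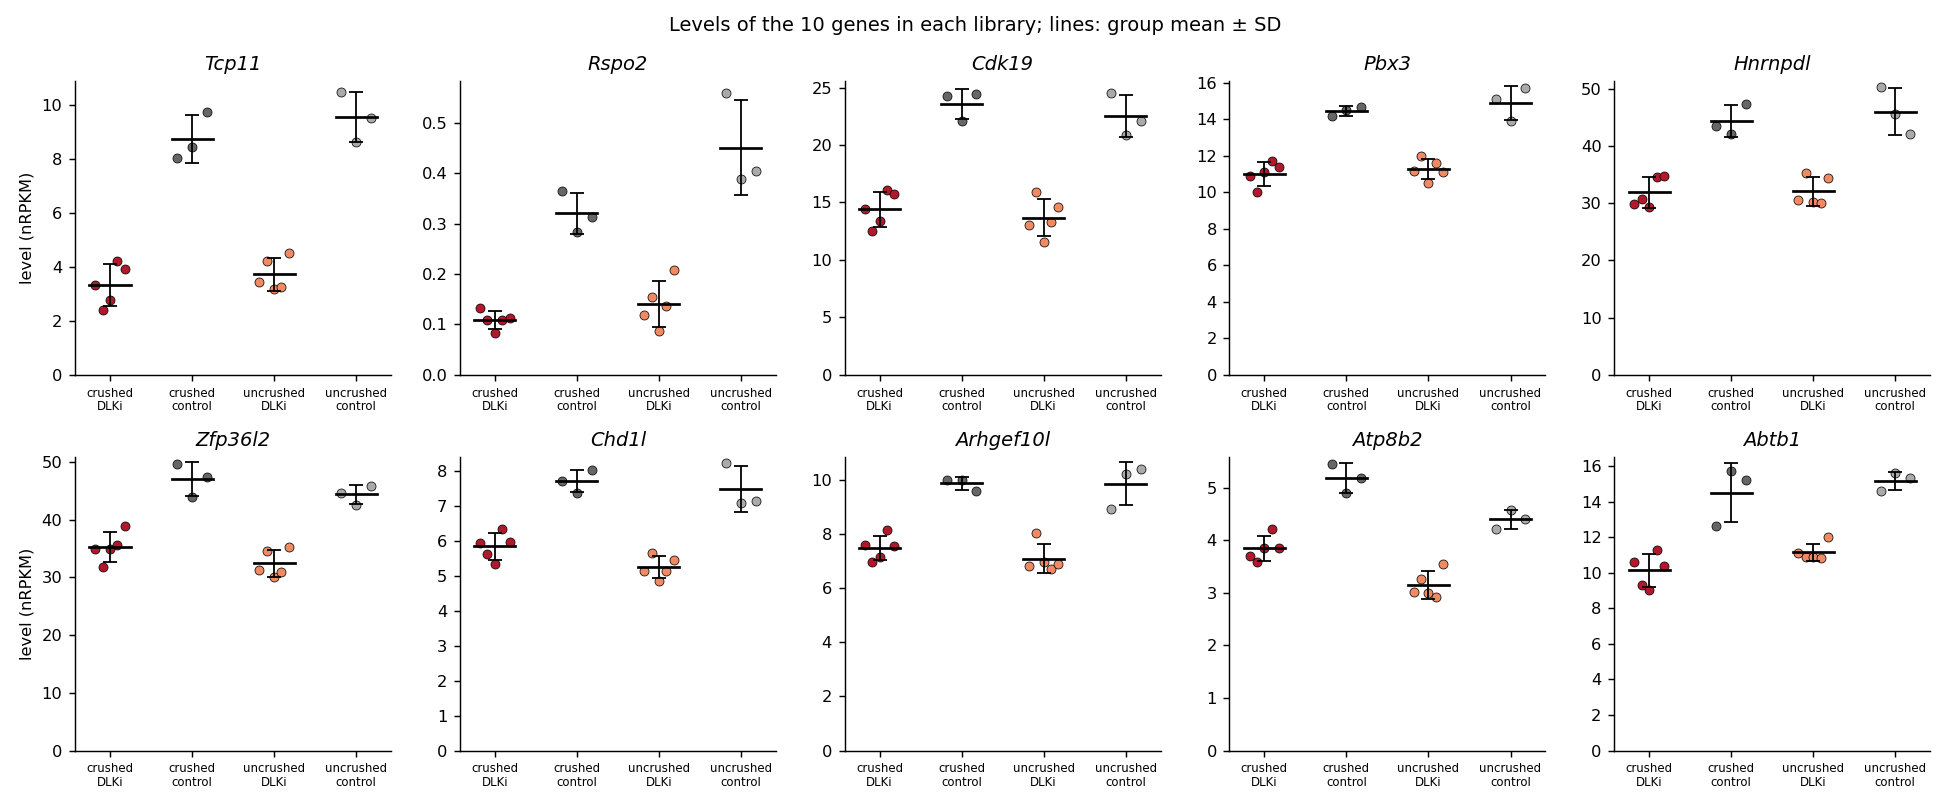
Level in nRPKM (y axis, from 0) of each of the 10 genes in each library (points), by group, with the group mean (line) ± SD (bars; n = 5 DLKi and 3 control libraries per eye). In each panel the DLKi points lie below all control points of the same eye, as for Tcp11 at 2.39 to 4.52 with inhibitor against 8.04 to 10.5 with vehicle.

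Rspo2 showed the largest decrease of the 10 and also of the 39 genes called lower in both eyes. R-spondin 2 is a secreted protein that binds LGR receptors and keeps the ubiquitin ligases ZNRF3 and RNF43 from removing Wnt receptors, which raises Wnt signalling. It was scarce in retina: its level was 0.132, 0.109, 0.0823, 0.108 and 0.113 nRPKM in the crushed DLKi libraries, against 0.365, 0.284 and 0.313 in crushed control. In the uncrushed eye it was 0.118, 0.154, 0.0863, 0.136 and 0.209 nRPKM with inhibitor, against 0.559, 0.389 and 0.404 with vehicle. No DLKi library reached the lowest control library of either eye. The means were 0.109 ± 0.0178 against 0.321 ± 0.0407 nRPKM in crushed retina and 0.141 ± 0.0457 against 0.451 ± 0.0942 in uncrushed retina (SD, n = 5 and 3), which is 34.0% and 31.2% of the control mean. The log2 change was -1.55 ± 0.24 in crushed and -1.67 ± 0.22 in uncrushed retina (SE). These values rest on few reads, 13 to 21 per library in crushed DLKi against 39 to 53 in crushed control retina, and 16 to 32 in uncrushed DLKi against 60 to 73 in uncrushed control retina, so counting error alone is sizeable.

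Tcp11 came next. It encodes T-complex protein 11, known from testis, where it is involved in the motility and capacitation of sperm. Its level was 3.32, 2.39, 2.79, 4.23 and 3.93 nRPKM in crushed DLKi, against 8.04, 8.46 and 9.76 in crushed control retina. In the uncrushed eye it was 3.45, 4.24, 3.20, 3.25 and 4.52 nRPKM with inhibitor, against 10.5, 8.65 and 9.55 with vehicle. The DLKi and control libraries were far apart in either eye, with the highest DLKi library at 4.52 and the lowest control library at 8.04 nRPKM. Means were 3.33 ± 0.763 against 8.75 ± 0.898 nRPKM in crushed retina, 38.1% of control, and 3.73 ± 0.605 against 9.57 ± 0.929 in uncrushed retina, 39.0% of control (SD, n = 5 and 3). The log2 changes were -1.39 ± 0.15 and -1.36 ± 0.15 (SE). Tcp11 had 258 to 427 reads per library in crushed DLKi against 721 to 918 in crushed control retina, and 342 to 543 in uncrushed DLKi against 695 to 1000 in uncrushed control retina. Of 6 spermatid marker genes, 0 had enough reads to be tested, and Prm2 and Akap4 had 0 reads in all 16 libraries.

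Cdk19, Pbx3 and Chd1l act on transcription and chromatin. CDK19 is one of the interchangeable kinases of the Mediator complex, which links transcription factors to RNA polymerase II. Cdk19 stood at 14.4, 12.5, 13.4, 16.1 and 15.7 nRPKM in crushed DLKi, against 24.3, 22.1 and 24.4 in crushed control retina. In the uncrushed eye it stood at 13.0, 15.9, 11.6, 13.3 and 14.6 nRPKM with inhibitor, against 24.5, 20.9 and 22.1 with vehicle. Its DLKi libraries of either eye ended at 16.1 nRPKM and its control libraries began at 20.9. The means were 61.1% of control in crushed and 60.7% in uncrushed retina, log2 changes of -0.71 ± 0.10 and -0.72 ± 0.10 (SE), the third largest of the 10.

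PBX3 is a homeodomain protein of the TALE class that binds DNA together with HOX and MEIS proteins. Pbx3 stood at 10.9, 9.998, 11.1, 11.7 and 11.4 nRPKM in crushed DLKi, against 14.2, 14.5 and 14.7 in crushed control retina. In uncrushed retina it stood at 11.2, 12.05, 10.5, 11.6 and 11.1 nRPKM with inhibitor, against 15.1, 13.9 and 15.7 with vehicle. This was the smallest mean decrease of the 10, to 76.2% of control in crushed and 75.9% in uncrushed retina, but also the tightest gene: its SD within groups was 0.07 on the log2 scale, against a median of 0.17 over all tested genes. So small a change passes the call rule only with a small spread. The log2 changes were -0.39 ± 0.06 and -0.40 ± 0.06 (SE).

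CHD1L, also called ALC1, is a chromatin remodeller of the SNF2 family that poly(ADP-ribose) recruits and activates at DNA breaks. Chd1l stood at 5.93, 5.61, 5.33, 6.34 and 5.97 nRPKM in crushed DLKi, against 7.72, 7.37 and 8.02 in crushed control retina. Without crush it stood at 5.14, 5.66, 4.84, 5.12 and 5.44 nRPKM with inhibitor, against 8.23, 7.09 and 7.12 with vehicle. No library with inhibitor reached the lowest library with vehicle, 7.09 nRPKM. Means were 75.8% of control in crushed and 70.0% in uncrushed retina, with log2 changes of -0.40 ± 0.07 and -0.51 ± 0.07 (SE).

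Hnrnpdl and Zfp36l2 encode RNA-binding proteins and had the highest levels of the 10. HNRNPDL is a relative of hnRNP D that takes part in splicing and regulates its own transcript. Hnrnpdl stood at 29.9, 30.8, 29.3, 34.6 and 34.8 nRPKM in crushed DLKi, against 43.5, 42.1 and 47.4 in crushed control retina. In uncrushed retina it stood at 30.5, 35.3, 30.3, 30.0 and 34.4 nRPKM with inhibitor, against 50.3, 45.6 and 42.1 with vehicle. The highest library with inhibitor, at 35.3, lay below the lowest with vehicle, at 42.1. Means were 71.9% of control in crushed and 69.8% in uncrushed retina, with log2 changes of -0.48 ± 0.08 and -0.52 ± 0.08 (SE).

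ZFP36L2 is a zinc finger protein that binds AU-rich elements and hastens the decay of the transcripts that carry them. Zfp36l2 stood at 35.0, 31.8, 35.0, 35.6 and 38.9 nRPKM in crushed DLKi, against 49.7, 44.0 and 47.4 in crushed control retina. The uncrushed eye gave 31.2, 34.6, 30.0, 31.0 and 35.3 nRPKM with inhibitor, against 44.7, 42.6 and 45.8 with vehicle. Its DLKi and control libraries did not overlap, in either eye or across eyes, with 38.9 nRPKM as the highest of the 10 and 42.6 as the lowest of the 6. Means were 74.9% of control in crushed and 73.0% in uncrushed retina, with log2 changes of -0.42 ± 0.07 and -0.46 ± 0.07 (SE).

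Arhgef10l and Atp8b2 act at the cell cortex and in membranes. ARHGEF10L is a guanine nucleotide exchange factor that activates RhoA-type GTPases. Arhgef10l stood at 7.60, 6.97, 7.15, 8.13 and 7.54 nRPKM in crushed DLKi, against 10.04, 10.04 and 9.59 in crushed control retina. In uncrushed retina it stood at 6.80, 8.03, 6.97, 6.70 and 6.90 nRPKM with inhibitor, against 8.93, 10.2 and 10.4 with vehicle. The second uncrushed DLKi library was high for its group and still below every control library. Means were 75.6% of control in crushed and 72.0% in uncrushed retina, with log2 changes of -0.40 ± 0.07 and -0.48 ± 0.07 (SE).

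ATP8B2 is a P4-ATPase, a flippase that moves phospholipids to the inner leaflet of the plasma membrane. Atp8b2 stood at 3.71, 3.59, 3.86, 4.22 and 3.86 nRPKM in crushed DLKi, against 5.46, 4.90 and 5.19 in crushed control retina. Uncrushed libraries gave 3.02, 3.26, 2.99, 2.93 and 3.56 nRPKM with inhibitor, against 4.21, 4.58 and 4.41 with vehicle. Within an eye the groups did not overlap, but the highest crushed DLKi library lay within the range of the uncrushed control libraries, since crushed retinas stood above uncrushed retinas with either drug. Means were 74.3% of control in crushed and 71.7% in uncrushed retina, with log2 changes of -0.43 ± 0.07 and -0.48 ± 0.07 (SE).

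Abtb1 encodes a protein with ankyrin repeats and BTB domains, and BTB domains occur in adaptors of cullin 3 ubiquitin ligases. Abtb1 stood at 10.6, 9.32, 9.02, 11.3 and 10.4 nRPKM in crushed DLKi, against 12.6, 15.7 and 15.2 in crushed control retina. Without crush it stood at 11.1, 10.9, 10.9, 10.8 and 11.98 nRPKM with inhibitor, against 14.6, 15.6 and 15.3 with vehicle. The gap was narrow, since the highest DLKi library stood at 11.98 and the lowest control library at 12.6 nRPKM. Means were 69.9% of control in crushed and 73.4% in uncrushed retina, with log2 changes of -0.52 ± 0.08 and -0.45 ± 0.08 (SE).

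Of 19 tested relatives of the 10 genes none was called with the inhibitor. There were 22 relatives, of which 19 were tested and 0 called in either eye (edgeR quasi-likelihood test), where 0.505% of tested genes were called in crushed and 0.629% in uncrushed retina. A count of 0 among 19 does not stand apart from these shares. Over all 19391 tested genes, 2665 in crushed and 3349 in uncrushed retina had an unadjusted p below 0.05 (edgeR). Among the relatives there were 1 and 3, and DESeq2 called 0 in either eye. Their log2 changes had a median of -0.01 in crushed retina and 0.07 in uncrushed, and ran from -0.48 to 0.25 and from -0.43 to 0.28. CDK8, the kinase that stands in for CDK19 in Mediator, is encoded by Cdk8, which averaged 8.27 ± 0.243 nRPKM in crushed DLKi against 8.26 ± 0.641 in crushed control retina, and 8.21 ± 0.568 in uncrushed DLKi against 8.26 ± 0.305 in uncrushed control retina (SD, n = 5 and 3). Its log2 changes were 0.00 ± 0.06 and -0.01 ± 0.06 (SE), beside -0.71 and -0.72 for Cdk19. Pbx2 was at 0.05 ± 0.06 and 0.10 ± 0.06, values close to 0 beside -0.39 and -0.40 for Pbx3. Hnrnpd (-0.01 ± 0.07, 0.07 ± 0.07) and Hnrnpab (0.02 ± 0.07, 0.11 ± 0.07) likewise lay near 0. Hnrnpa2b1, a more distant hnRNP gene whose product binds and sorts RNA, gave negative values in both eyes, -0.37 ± 0.09 and -0.34 ± 0.09 (edgeR adjusted p = 0.0781 and 0.0952). Zfp36 gave -0.07 ± 0.10 and 0.08 ± 0.11, and Zfp36l1 0.19 ± 0.15 and 0.24 ± 0.15. The values of Arhgef10 were positive, at 0.22 ± 0.08 and 0.21 ± 0.08 (adjusted p = 0.234 and 0.202, edgeR). Tcp11l1 gave negative values in both eyes, -0.25 ± 0.16 and -0.35 ± 0.16 (adjusted p = 0.503 and 0.259), and so did Atp8b5, a scarce transcript, at -0.48 ± 0.25 and -0.43 ± 0.25 (0.413 and 0.396). Rspo1, Rspo3 and Atp8b4 had too few reads to be tested, at most 14, 10 and 2 in a library. The difference between a gene and its relative was not tested. The 10 genes were chosen for their decrease and the relatives were not, so a gap between them follows at least in part from the choice.

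**Figure D3:**
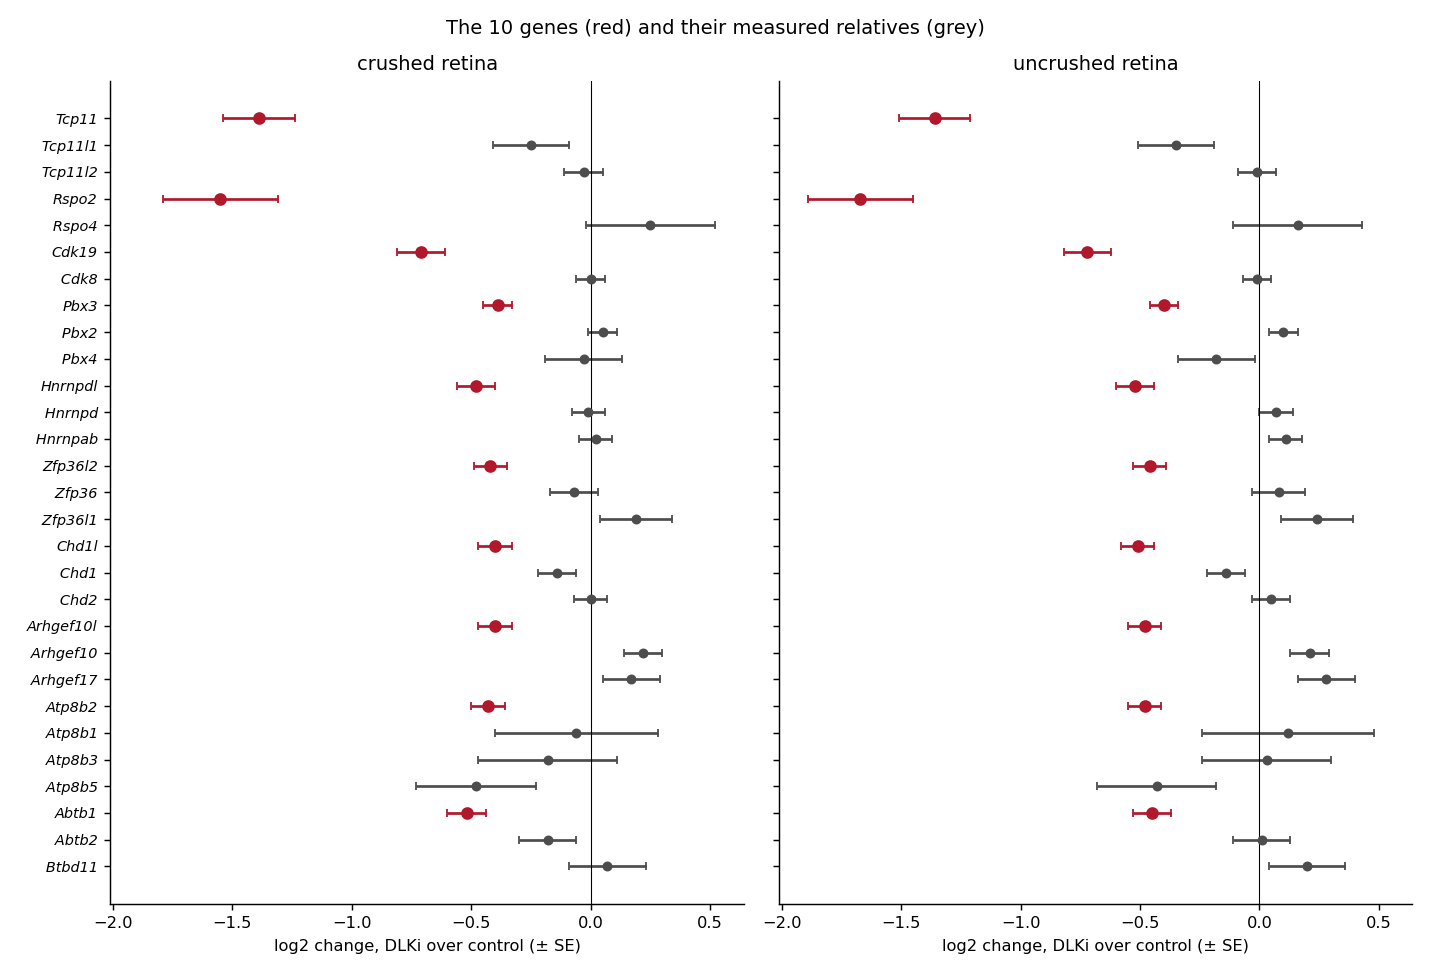
Log2 change with inhibitor (x axis, ± SE) in crushed retina (left) and uncrushed retina (right) for the 10 genes (red) and, below each, its measured relatives, 19 in all (grey). The red points lie between -1.67 and -0.39 and the grey points between -0.48 and 0.28. The 10 genes were chosen for these decreases and the relatives were not.

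Over the wider gene families of the 10, the median inhibitor change lay close to that of all tested genes. In 11 lists built around them (Mediator kinase module, R-spondin and Wnt receptor turnover, PBX and MEIS, hnRNP, splicing regulators, mRNA decay, P4-ATPases, exchange factors of small GTPases, chromatin remodellers with PARP, BTB proteins, and TCP11 relatives with protein kinase A), 155 of 161 further genes were tested. In crushed retina 0 of these were called (edgeR; 17 at an unadjusted p below 0.05, 3 by DESeq2), with a median log2 change of -0.02. In uncrushed retina 1 was called lower and 1 higher (34 at an unadjusted p below 0.05, 7 by DESeq2), with a median of 0.01. Of all 19391 tested genes, 2665 in crushed and 3349 in uncrushed retina had an unadjusted p below 0.05 (edgeR). The gene called lower was Fzd4, a Wnt and norrin receptor of retinal vessels, at 3.21 ± 0.100 nRPKM in uncrushed DLKi against 4.30 ± 0.440 in uncrushed control retina (SD, n = 5 and 3; log2 change -0.42 ± 0.07 SE, edgeR adjusted p = 0.0162) and -0.25 ± 0.07 in crushed retina (adjusted p = 0.147). The gene called higher was Hnrnpm, a splicing regulator, at 96.5 ± 3.84 nRPKM in uncrushed DLKi against 78.6 ± 3.22 in uncrushed control retina (0.29 ± 0.06, edgeR adjusted p = 0.0253), with 0.21 ± 0.06 in crushed retina (adjusted p = 0.103). In the Mediator kinase module 0 of 6 further genes were called in either eye (edgeR; 1 in each at an unadjusted p below 0.05, 0 by DESeq2), with medians of -0.01 and -0.02. Among the partners of R-spondin 2, the receptor gene Lgr4 gave -0.14 ± 0.07 and -0.16 ± 0.07 and the ligase genes Znrf3 -0.30 ± 0.09 and -0.36 ± 0.09 (adjusted p = 0.160 and 0.0841) and Rnf43 -0.28 ± 0.20 and -0.39 ± 0.20.

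Changes with crush, a contrast that did not choose the genes, were mostly small in the 10. The crush tests share the within-group spread with the contrasts that chose the genes, so their SE may be too small. With vehicle, 0 of 10 were called between 3 crushed and 3 uncrushed retinas (edgeR quasi-likelihood test; 1 at an unadjusted p below 0.05, 0 by DESeq2), against 2.63% of tested genes (1.77% higher, 0.861% lower), with adjusted p from 0.164 to 0.999. With inhibitor, 1 of 10 was called between 5 crushed and 5 uncrushed retinas, higher, against 3.29% of tested genes called higher, 2.04% lower and 5.33% in either direction. The median log2 change of the 10 was -0.02 with vehicle and 0.04 with inhibitor, and 0.00 over all tested genes in both. An unadjusted p below 0.05 with vehicle was found for 2017 of all 19391 tested genes (edgeR). Shares of 0 and 1 in 10 do not stand apart from these backgrounds. With a block for couples of consecutive sample identifiers, which the labels do not tie to 1 mouse, 1 of 10 was called with vehicle (Atp8b2, edgeR adjusted p = 0.031) and 2 with inhibitor (Atp8b2 and Chd1l).

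The gene called was Atp8b2. It averaged 3.85 ± 0.234 nRPKM in crushed DLKi against 3.15 ± 0.260 in uncrushed DLKi retina (SD, n = 5 each). The log2 change was 0.29 ± 0.06 (SE; adjusted p = 0.00697 by edgeR), and all 5 crushed libraries lay above all 5 uncrushed ones, as for 3.4% of tested genes. With vehicle it averaged 5.18 ± 0.280 in crushed control against 4.40 ± 0.186 in uncrushed control retina (n = 3 each), again without overlap, as for 8.13% of tested genes. That change was 0.24 ± 0.08 (edgeR adjusted p = 0.164). The difference of its crush changes, 0.05 ± 0.10, is smaller than its SE. Without the pair of control libraries that stands apart, the change was 0.29 ± 0.06 with inhibitor (adjusted p = 0.00721) and 0.20 ± 0.10 with vehicle (adjusted p = 0.523). Without the crushed DLKi pair high in cornea markers it was 0.29 ± 0.08 with inhibitor (adjusted p = 0.0485). Cell type markers moved in the same contrasts. With inhibitor 11 of 14 ganglion cell markers were called lower, 8 of 10 microglia markers higher, 9 of 13 lens markers lower and 4 of 5 cornea markers higher, with medians of -0.71, 1.05, -3.13 and 4.43. With vehicle 10 ganglion cell markers were lower and 4 microglia markers higher, with medians of -1.17 and 0.85, and 0 lens and 0 cornea markers were called (edgeR; 8 and 0 at an unadjusted p below 0.05, 0 and 0 by DESeq2). Their part in the crush change of Atp8b2 was not tested.

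The other crush changes were small or loosely measured. Rspo2 gave -0.35 ± 0.23 with inhibitor and -0.48 ± 0.24 with vehicle (edgeR adjusted p at least 0.164 for each of the 10 genes with vehicle), and its 3 crushed control libraries lay below its 3 uncrushed ones, as for 4.75% of tested genes. Without the control pair that stands apart Rspo2 gave -0.29 ± 0.29 with vehicle (adjusted p = 0.955). Chd1l gave 0.16 ± 0.06 with inhibitor (adjusted p = 0.223, or 0.0344 with the block for couples) and 0.05 ± 0.08 with vehicle. Zfp36l2 gave 0.12 ± 0.06 (adjusted p = 0.369) and 0.09 ± 0.08, and Tcp11 -0.16 ± 0.14 and -0.13 ± 0.17. For Cdk19, Pbx3, Hnrnpdl, Arhgef10l and Abtb1 the values lay between -0.13 and 0.08 in both contrasts. The crush change with inhibitor differed from that with vehicle by -0.07 to 0.12 in the 10 genes. That difference is built from the inhibitor contrasts that chose the genes and is given without a test.

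**Figure D4:**
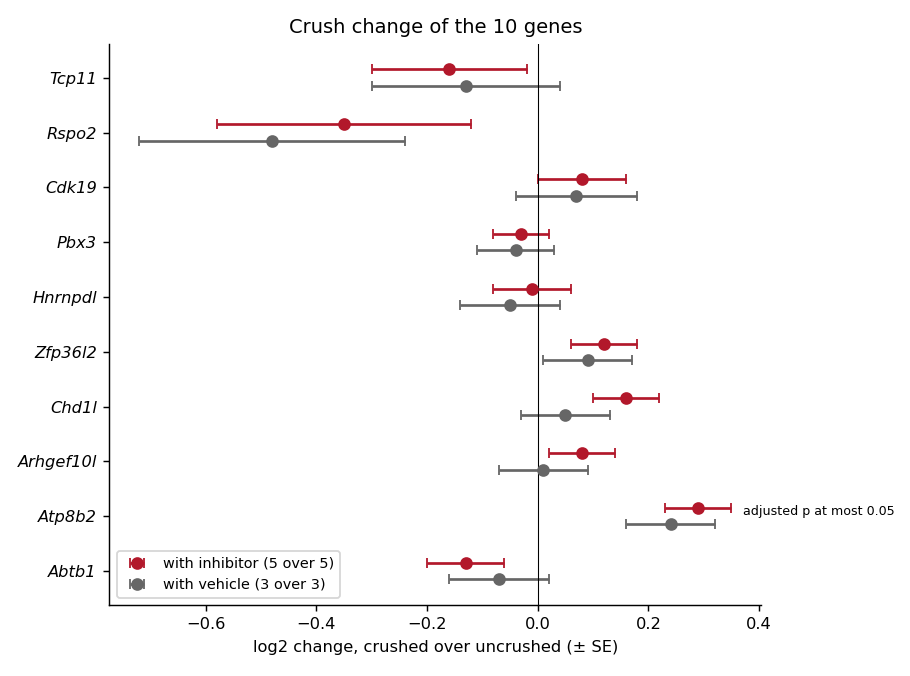
Log2 change of crushed over uncrushed retina (x axis, ± SE) for the 10 genes with inhibitor (red, 5 over 5 libraries) and with vehicle (grey, 3 over 3). Atp8b2 with inhibitor, at 0.29 ± 0.06, is the 1 value with an adjusted p at or below 0.05, and apart from Atp8b2 and Rspo2 the values lie between -0.16 and 0.16.

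Some other genes of the same families were called with crush. Among the 155 further genes, 4 were called higher and 0 lower with vehicle (edgeR), and 4 higher and 1 lower with inhibitor. These are 2.58% and 3.23% of the 155, near the 2.63% of all tested genes with vehicle and below their 5.33% with inhibitor. Arhgef2, an exchange factor bound to microtubules, rose by 0.29 ± 0.07 with inhibitor (adjusted p = 0.0147) and by 0.46 ± 0.09 with vehicle (0.00649), beside the GTPase gene Rhoc (0.61 ± 0.11, 0.55 ± 0.14) and the kinase gene Rock2 (0.27 ± 0.06, 0.33 ± 0.07), while Arhgef10l gave 0.08 and 0.01. Parp1, whose product makes the poly(ADP-ribose) that activates CHD1L, rose with vehicle (0.27 ± 0.06, edgeR adjusted p = 0.0129) and gave 0.14 ± 0.04 with inhibitor (0.0847). With inhibitor the PBX-interacting gene Pbxip1 rose (0.32 ± 0.09, 0.0328) and the remodeller gene Chd3 fell (-0.29 ± 0.07, 0.0161).

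Within a group the 10 genes tended to be high or low in the same libraries. In crushed DLKi retina 10 of the 10 lay above their group mean in replicate 5 and 9 in replicate 4, but 1 in replicate 2 and 1 in replicate 3. In uncrushed DLKi retina 9 lay above it in replicate 2 and 8 in replicate 5, but 0 in replicate 3 and 1 in replicate 1. The mean deviation of the 10 genes from their group means ran from -0.13 to 0.13 (log2) in crushed DLKi, -0.15 to 0.15 in uncrushed DLKi, -0.05 to 0.05 in crushed control and -0.05 to 0.07 in uncrushed control libraries. Of the 45 pairs of the 10 genes, 44 had a positive Pearson r of these deviations over the 16 libraries, with a median r of 0.50. Without the control pair that stands apart, 45 of 45 were positive, with a median of 0.63. Over all pairs of the 13759 genes with at least 1 CPM, 50.3% were positive, with a median r of 0.00, but those genes were not selected on these libraries as the 10 were. All points of such an r share library, depth and scaling, and no p is given. Rspo2 and Tcp11 varied most within groups (SD 0.31 and 0.25 on the log2 scale) and 8 of the 10 varied less than the median tested gene (0.17). A gene with a small change passes the call rule only with a small spread, so this low SD follows in part from the choice.

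**Figure D5:**
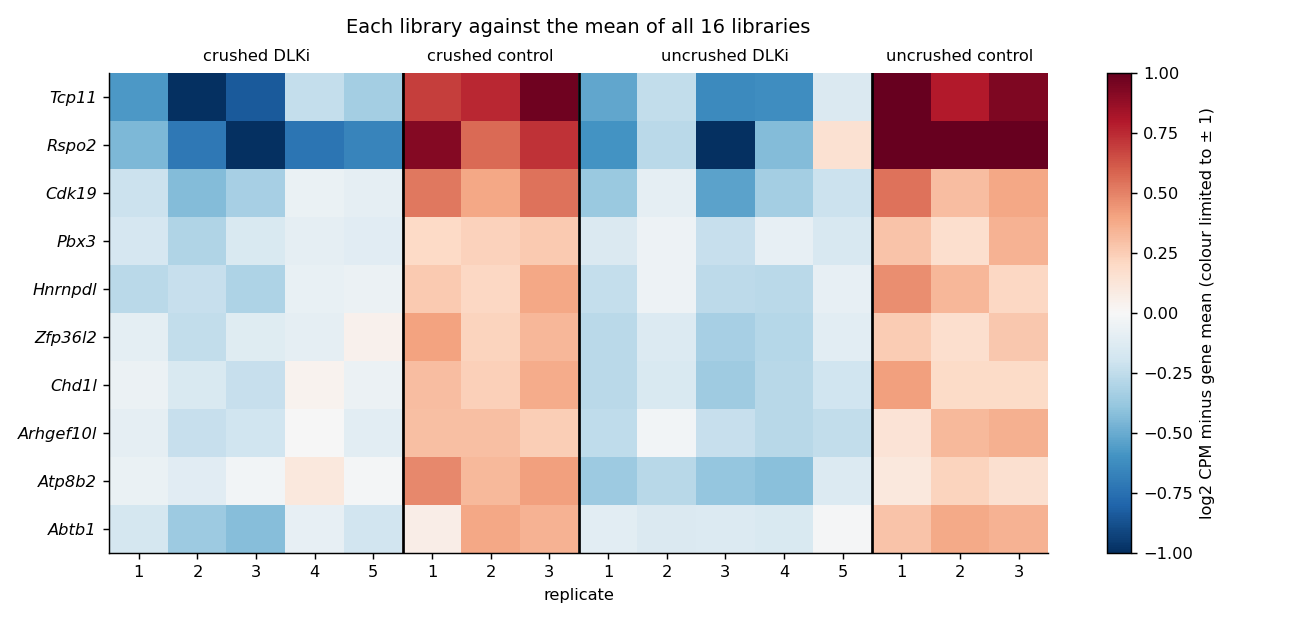
Log2 CPM of each gene (rows) in each library (columns, by group and replicate) minus the gene's mean over the 16 libraries; red is above and blue below that mean, and colours stop at ± 1. All cells of the 6 control columns are above 0 and most cells of the 10 DLKi columns below it, with Tcp11 and Rspo2 the most intense rows.

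Among the 39 genes, the 10 ranked from 1 (Rspo2) and 2 (Tcp11) through 6 (Cdk19) to 32 (Pbx3) by mean decrease over both eyes. The other 29 include larger decreases than most of the 10. Stmn4, a stathmin that destabilises microtubules, averaged 16.9 ± 3.01 nRPKM in crushed DLKi against 28.5 ± 6.0 in crushed control, and 5.11 ± 0.353 in uncrushed DLKi against 10.8 ± 2.23 in uncrushed control retina (SD, n = 5 and 3; log2 changes -0.76 and -1.09). Abca1, which exports cholesterol, gave -0.74 and -0.92. The other 8 that the naming rule admits were Mlf1 (-0.80, -0.70), Fcamr (-0.69, -0.73), Cntrl (-0.63, -0.71), Ptpru (-0.67, -0.63), Il4i1 (-0.62, -0.56), Pcmtd2 (-0.53, -0.63), Frat1 (-0.56, -0.59) and Dnase1 (-0.56, -0.58). Of the 29, 3 were called for crush with vehicle and 4 with inhibitor (edgeR), where 2.63% and 5.33% of all tested genes were, Stmn4 among them at 1.73 ± 0.14 with inhibitor (adjusted p = 6.44e-07) and 1.40 ± 0.18 with vehicle (0.000139). The call rule of the list, not a separate test, sets these genes apart.

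Values that could move with the inhibitor were read beside the 10 genes. As a background, 2665 of all 19391 tested genes in crushed and 3349 in uncrushed retina had an unadjusted p below 0.05 (edgeR). Map3k12, the target of the inhibitor, stood at 36.9 to 47.3 nRPKM over the 16 libraries, with log2 changes of -0.02 ± 0.07 in crushed and -0.04 ± 0.07 in uncrushed retina (edgeR adjusted p = 0.924 and 0.834), and its relative Map3k13 at 4.26 to 5.75 nRPKM, with 0.06 ± 0.09 in both (0.809 and 0.765). In the DLK and JNK list, which has 16 genes, Dusp8 was called lower in crushed retina (-0.32 ± 0.07, adjusted p = 0.0477) and Jun in uncrushed retina (-0.69 ± 0.15, 0.0402). Of 14 ganglion cell markers 3 were called higher with inhibitor in crushed and 0 in uncrushed retina (medians 0.29 and 0.28), and their summed level was 346 to 417 nRPKM in crushed DLKi against 269 to 377 in crushed control, and 537 to 718 in uncrushed DLKi against 438 to 603 in uncrushed control retina. Of 9 pigment epithelium markers 0 were called (edgeR; 0 in crushed and 1 in uncrushed retina at an unadjusted p below 0.05, 0 by DESeq2), but all 9 had negative values in both eyes, with medians of -0.45 and -0.74. Their sums were 71.4 to 122 nRPKM in crushed DLKi against 103 to 153 in crushed control, and 42.3 to 192 in uncrushed DLKi against 64.5 to 355 in uncrushed control retina. Of 13 lens markers 0 were called (edgeR; 0 and 2 at an unadjusted p below 0.05, 0 by DESeq2), with medians of 0.71 and 1.20. Of 111 tested genes in the 16 other marker lists 0 were called (edgeR; 18 in crushed and 15 in uncrushed retina at an unadjusted p below 0.05, 9 and 2 by DESeq2), with medians of 0.07 and 0.00. They include the 5 cornea and conjunctiva markers (edgeR; 5 in crushed and 0 in uncrushed retina at an unadjusted p below 0.05, 3 and 0 by DESeq2), with medians of 4.25 and -0.26 and sums of 0.528 to 35.5 nRPKM in crushed DLKi against 0.592 to 1.54 in crushed control, and 0.501 to 2.18 in uncrushed DLKi against 0.95 to 1.79 in uncrushed control retina. They also include 6 ciliary body and iris markers (0 at an unadjusted p below 0.05, 0 by DESeq2), with medians of -0.29 and -0.37. Values of like sign were not particular to pigment epithelium. All 6 ciliary body and iris markers were negative and all 14 ganglion cell markers positive in both eyes. Of the 13 lens markers, 1 was negative in each eye. Of 16 clock genes 0 were called (edgeR; 0 and 6 at an unadjusted p below 0.05, 0 and 1 by DESeq2), with medians of 0.07 and 0.11. In the remaining lists, of DLK-dependent injury genes 3 of 15 were called lower in crushed retina and 2 lower and 1 higher in uncrushed retina, of glucocorticoid-responsive genes 1 of 9 was lower in each eye, and of immediate early genes 1 of 12 was lower in crushed retina. The part of these markers in the levels of the 10 genes was not tested.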

How the data were processed

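Gene expression was measured in 16 retinas by sequencing of poly(A) RNA: libraries from 0.5 µg of total RNA with the TruSeq kit version 2 and single reads of 50 bases on a HiSeq4000, per the labels' protocols. The authors' deposited counts are whole numbers of reads per gene model, listed by Entrez identifier, per the file headers. The deposited nRPKM values are RPKM adjusted by a size factor per library, per the file headers. Here they were used for levels and for whether libraries overlap, and the library factors behind them for an alternative scaling. The aligner was GSNAP and the build GRCm38, per the submitters' processing notes, while their versions and settings are not given in any source used here. Of 36528 identifiers, 31049 matched a symbol in RefSeq.

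Counts were fitted with edgeR 4.0.16 in R 4.3.3 (TMM, filterByExpr, quasi-likelihood F test, two-sided) on the 16 libraries together, 1 mean per group, 12 residual degrees of freedom and Benjamini-Hochberg adjustment over 19391 genes. A gene was called at an adjusted p of at most 0.05. Code was tested on simulated counts. The members and all gene lists were chosen with earlier results of these data known. Named were the 10 genes, Map3k12 and Map3k13, relatives of the 10 (1 is not reported here), up to 3 called genes per related list, the 10 largest other decreases at a mean level of 1 CPM or more, and the 2 genes varying most like each of the 10. Smpd2, Grk6, Lgr4, Znrf3, Rnf43 and the inhibitor change of Hnrnpa2b1 were added after their values were seen. Alternatives were DESeq2 1.42.0, other scalings, no filter, only the groups compared, and libraries left out. Where counts are few, as for Rspo2, precision is limited by counting.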

Additional observations from a re-analysis of the deposited data

Results flagged for a closer look

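Of 20 sets of values checked, those of the 10 genes in the 5 crushed DLKi and in the 5 uncrushed DLKi libraries, 1 held a library far from the others. Arhgef10l stood at 5.68 log2 CPM (8.03 nRPKM) in uncrushed DLKi replicate 2, the highest of its group, and its gap to the next library took a share of 0.77 of the group's range. The other 4 libraries of that group stood at 6.70 to 6.97 nRPKM. The limit applied is one that chance passes in about 1 of 20 independent groups, and these sets share libraries.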

How the results depend on the processing

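The 20 inhibitor changes of the 10 genes stayed negative under all 24 alternatives. They ran from -1.49 to -1.29 in crushed and -1.45 to -1.29 in uncrushed retina for Tcp11. For Rspo2 they ran from -1.64 to -1.44 and from -1.85 to -1.50. The genes were chosen for a decrease, and their DLKi and control libraries did not overlap within an eye. A stable sign was therefore set in advance and is no support. How many genes passed the threshold depended on the settings, so the list of 39 is not sharply bounded. DESeq2 called 401 in place of 98 genes in crushed retina, 623 in place of 122 in uncrushed retina, 116 in place of 39 lower in both (9 of the 10 among them) and 5 in place of 2 for the difference of crush changes. Fits of only the groups compared called 45, 3 and 2 (1 of the 10), and 281 in place of 510 for crush with vehicle. Without the pair of control libraries that stands apart, the counts were 53, 11 and 9 (5 of the 10), and 1 for the difference. Without the 2 control libraries whose sample identifiers are not consecutive with the rest, they were 38 in crushed retina, 17 in both (7 of the 10), 258 for crush with vehicle and 1 for the difference. Without the 2 crushed DLKi libraries high in cornea markers, chosen after seeing the data, they were 9 in crushed retina, 51 in uncrushed retina, 3 in both (2 of the 10) and 1 for the difference. Leaving out 1 library at a time gave 22 to 144, 17 to 205 and 9 to 57 genes lower in both, 276 to 506 for crush with vehicle, 748 to 1258 with inhibitor and 1 to 2 for the difference. Of the counts lower in both, those most below 39 came without crushed control replicate 1 (9, with 4 of the 10), 3 (12, 5) or 2 (14, 7), uncrushed control replicate 2 (13, 8) or 1 (14, 8), and uncrushed DLKi replicate 4 (16, 9) or 3 (17, 9). They were 23 each without crushed DLKi replicate 1 (10) or 3 (9). Crush with vehicle gave 276 without crushed control replicate 1, and 279 and 318 without uncrushed control replicates 2 and 3. The other scalings and no filter kept all 10 among 39, 39 and 32 genes. The call of Atp8b2 for crush with inhibitor held in 25 of 25 alternatives, with adjusted p from 0.00065 to 0.0485 (edgeR or DESeq2).

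Sample identifiers run in 8 consecutive couples of 1 crushed and 1 uncrushed retina of the same drug, but the labels do not say that a couple is 1 mouse. All DLKi libraries form 1 unbroken run of identifiers, with control libraries before and after it. Drug and a batch in this order could not be told apart. A replicate block of these couples, chosen after seeing the data, gave 1234 calls for crush with vehicle and 2080 with inhibitor; Atp8b2 with vehicle was then at 0.24 (edgeR adjusted p = 0.031) and Chd1l with inhibitor at 0.16 (0.0344). Couple deviations correlated at r = 0.10 to 0.60 over genes. The inhibitor contrast lies between couples and could not be fitted with the block. The cause of these moves was not tested.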

Other observations

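The genes whose levels varied most like those of the 10, after removal of the group means, were found among 13759 genes with at least 1 CPM over the 16 libraries. Pearson r is given as a description, since all points share library, depth and scaling. Each gene named was picked as the highest of so many, so a high r is expected, and no background for a best match was computed. Hnrnpdl was followed most closely by Acp6 and Hnrnpa2b1 (r = 0.95 each), the second a member of the hnRNP family. Cdk19 was followed by Sp4 and Slc25a35 (0.94 each), Chd1l by Arv1 (0.93) and H3c14 (0.92), and Atp8b2 by Asxl1 (0.93) and Nav1 (0.92). For Tcp11 they were Akna and Pcsk7 (0.91 each), for Rspo2 Zfp949 (0.91) and Mcur1 (0.90), and for Pbx3 Lpin1 (0.91) and Ncoa1 (0.88). Zfp36l2 was followed by Gemin4 and Kmt2e (0.91 each), Arhgef10l by Zdhhc18 (0.90) and Stk40 (0.89), and Abtb1 by Lzts3 (0.92) and Rnf43 (0.84). Without the pair of control libraries that stands apart, these r lay between 0.87 and 0.98. Akna is itself among the 39 genes called lower with inhibitor in both eyes, at -0.46 in crushed and -0.45 in uncrushed retina on the log2 scale.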
